A study of Mus musculus with 9 samples.

Results

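The comparison was between 6 mouse brain libraries taken after middle cerebral artery occlusion, with or without the drug celastrol, and 3 sham libraries, so that it reads what the injury did in both arms at once. All 9 libraries of the series entered it. Of 55385 genes in the deposited table, 16982 passed the filter on low values and were tested. The filter asked for 3 or more libraries with an FPKM (fragments normalised for length and for library size) no lower than 0.5. At that limit, the third highest FPKM of AI839979 was 0.5002, just inside, and that of Gm11539 was 0.49995, just outside.

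All animals were male C57BL/6 mice aged 8 to 10 weeks, under sevoflurane, and total RNA depleted of ribosomal RNA came from the hemisphere on the operated side. Sham mice (n = 3 libraries) had the neck surgery with no occlusion. tMCAO mice (transient middle cerebral artery occlusion, n = 3) had the artery closed for 90 min by a coated filament pushed up from the external carotid artery, which was then withdrawn to let blood return. Mice of the celastrol group (n = 3) had the same occlusion and 1 intraperitoneal dose of 4.5 mg/kg celastrol, a triterpenoid from the thunder god vine, when reperfusion began. No sham group with celastrol was analysed here, and the sources used here do not give the time from reperfusion to sampling. The labels do not say whether each library came from its own animal, so the spread behind every p-value may be partly technical.

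Closing and reopening the middle cerebral artery kills tissue in its territory and sets off a fast innate response. Resident microglia lose the genes of their resting state and gain receptors for debris, complement and antibody. Neutrophils and monocytes enter from blood, endothelium displays adhesion molecules, and astrocytes turn on acute phase and cytokine receptor genes. RNA from a whole hemisphere mixes all of these cells, so more cells of a type and more RNA per cell cannot be told apart in any result below.

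The libraries held 60392960 to 75158625 estimated counts. On the first principal component of log2 CPM (31.0% of the variance), sham libraries lay between -58.7 and -25.8 and 5 occluded libraries between 16.99 and 58.1. The second celastrol library lay next to the sham libraries, at -23.2. Its mean log2 level over the 27 tested reactive astrocyte genes was also the lowest of the 6, and list counts that moved without it are given both ways. Libraries also differed within groups in markers of brain region. The choroid plexus transcript Ttr, for example, had 165 to 1800 counts in sham and 90 to 119954 in occluded libraries.

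In the pooled test, 34 genes rose in occluded hemispheres and 6 fell at an adjusted p under 0.05 (edgeR quasi-likelihood, two-sided, Benjamini-Hochberg over all genes tested). These were 0.2% and 0.0353% of all tested genes, 0.236% in all. In all 40 the 6 occluded and the 3 sham libraries did not overlap in CPM (counts scaled to a common library size by TMM). Over all tested genes, 4.2% had every occluded library above every sham library and 2.53% had the reverse. At an unadjusted p under 0.05, 8.36% of genes were higher and 5.12% lower. The 34 genes that rose included receptors of myeloid cells, acute phase and complement proteins, 1 chemokine, cytokine receptors and early regulators. Among the 6 that fell were Arrb1, which encodes beta-arrestin 1, and P2ry12, the ADP receptor of resting microglia.

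The number of calls depended strongly on single libraries and on the method. Of the 40 adjusted p-values, 32 were the same value, 0.0484, just under the threshold, and the next gene stood at 0.0528. Without the second celastrol library 265 genes rose and 98 fell, and all 40 were among them. With sham replicate 2, sham replicate 3, the first tMCAO or the first celastrol library left out, just 1 gene rose and 0 fell (edgeR; 1455, 1449, 1988 and 1819 genes at an unadjusted p under 0.05). Those single genes were Cd2bp2, Cd244a, Fcgr4 and Fcgr4. Leaving out sham replicate 1 gave 11 higher and 4 lower genes, of which just 6 were among the 40. Leaving out the third tMCAO library gave 8 and 4 (9 among the 40), and the third celastrol library 4 and 6 (8 among the 40). Without tMCAO replicate 2 the counts were 26 and 3, with 23 among the 40. DESeq2 called all 40 among 606 higher and 173 lower genes. A fit with 1 mean per arm, whose 2 arm means were averaged and tested against sham, gave 1 higher and 1 lower gene. Both were among the 40. The newer quasi-likelihood form of edgeR and RLE scaling each gave 6 and 3, all 9 among the 40, and an FPKM minimum of 1 gave 2 and 1.

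**Figure D1:**
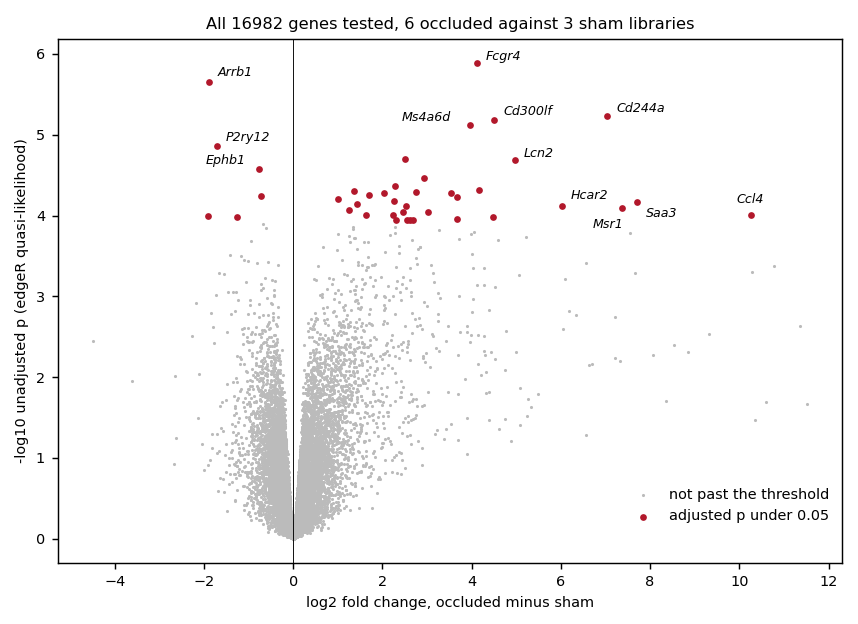
Each point is 1 of 16982 genes, with the log2 fold change of 6 occluded against 3 sham libraries on the x axis and -log10 of the unadjusted p on the y axis. The 40 genes past the adjusted threshold (dark red) lie mostly on the right, 34 against 6, and Fcgr4 and Arrb1 have the smallest p on each side.

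**Figure D2:**
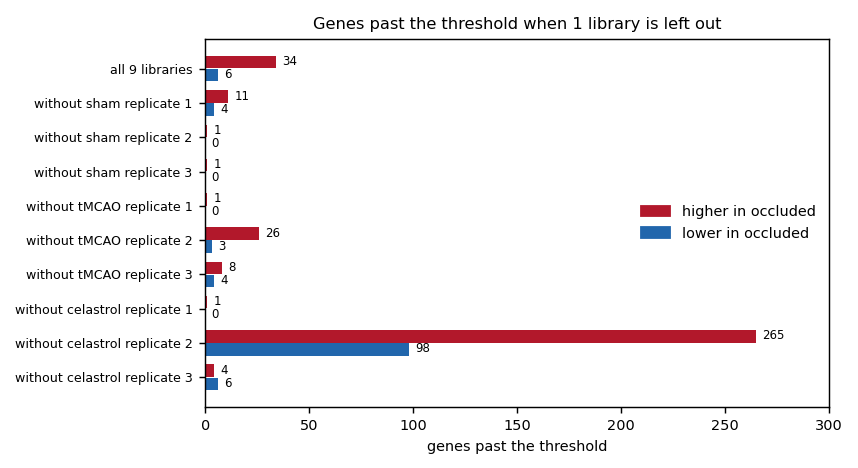
Bars give the number of genes past the threshold in the fit of all 9 libraries and in 9 fits that each leave out 1 library. The count of 34 higher and 6 lower genes becomes 265 and 98 without celastrol replicate 2 and 1 and 0 without any 1 of 4 other libraries.

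Several of the genes that rose encode receptors that myeloid cells carry on their surface. Fcgr4 (ENSMUSG00000059089, chr1:171018920-171029761, + strand, mm10), an activating receptor for the constant part of IgG, shared the smallest adjusted p with Arrb1. The Fcgr4 level was 0.167, 0.22 and 0.208 CPM in sham libraries. In tMCAO libraries it was 2.01, 2.63 and 3.93 CPM and with celastrol 5.03, 2.74 and 4.31 CPM. The lowest occluded library was thus far above the highest sham library, and the spread among the 6 was 2.50-fold. Fcgr4 rose by 4.11 on the log2 scale (SE 0.40, adjusted p = 0.0188). It remained past the threshold in 7 of the 9 fits that left out a library.

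Cd300lf (ENSMUSG00000047798, chr11:115116214-115133992, - strand), a lipid-binding receptor of myeloid cells that carries inhibitory motifs, had 0.0692 to 0.363 CPM in sham and 3.15 to 5.21 CPM in occluded libraries. It rose by 4.51 (SE 0.52, adjusted p = 0.0255), and its 6 occluded libraries differed by 1.65-fold at most. Cd244a, a receptor of natural killer and myeloid cells from the SLAM family, had 0, 0 and 0.0692 CPM in sham, which is 4 counts in all. In occluded libraries it had 2.13 to 4.12 CPM, and the fitted change was 7.04 (SE 0.80, adjusted p = 0.0255). The first lies across Rab37 on the other strand and the second across Ly9, so without strand the reads of these pairs could not be told apart. The deposited counts of Ly9 were 33.3% of those of Cd244a, and those of Rab37 were 288% of those of Cd300lf. Rab37 itself had a log2 fold change of 1.39 (SE 1.07, adjusted p = 0.59). Of the 40 genes, 11 overlap a row with over 10% as many counts as their own.

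Lilr4b and the inhibitory receptor Pirb, both of the leukocyte immunoglobulin-like families, rose by 4.47 (SE 0.72) and 2.46 (SE 0.39). Lilr4b had 0.223 to 0.346 CPM in sham, 6.98, 2.66 and 10.3 CPM after tMCAO and 9.94, 1.51 and 4.52 CPM with celastrol. Pirb had 0.311 to 0.642 CPM in sham and 1.48 to 3.64 CPM in occluded libraries. Both genes have near-identical relatives in the mouse genome, so the split of reads among copies is uncertain. Igsf6, a small immunoglobulin-type receptor of myeloid cells that lies inside Mettl9 on the other strand, rose by 1.69 (SE 0.25), while Mettl9 had a log2 fold change of -0.11 (SE 0.10).

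Upstream sequence is shown for 5 genes, which are from this group and the acute phase group below except for Icam1. They were chosen because each rose and holds a letter match to a factor known from myeloid or acute phase genes. Each line is 250 bases that end next to the RefSeq transcript start, on the gene's own strand, 5′ to 3′, build GRCm38.p6. Capitals mark matches on either strand to GAGGAAG (PU.1, a myeloid master regulator), TTGCNNAA (C/EBP) or TTCNNNGAA (STAT).
Fcgr4: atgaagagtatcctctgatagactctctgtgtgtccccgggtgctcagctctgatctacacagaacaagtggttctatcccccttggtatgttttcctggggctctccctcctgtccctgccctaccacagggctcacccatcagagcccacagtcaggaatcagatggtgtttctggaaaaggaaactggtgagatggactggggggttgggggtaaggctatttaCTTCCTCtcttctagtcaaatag
Cd300lf: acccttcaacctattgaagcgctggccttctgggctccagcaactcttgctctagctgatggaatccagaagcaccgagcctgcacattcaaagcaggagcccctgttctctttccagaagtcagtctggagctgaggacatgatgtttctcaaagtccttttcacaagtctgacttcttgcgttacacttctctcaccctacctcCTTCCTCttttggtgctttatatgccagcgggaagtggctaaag
Lcn2: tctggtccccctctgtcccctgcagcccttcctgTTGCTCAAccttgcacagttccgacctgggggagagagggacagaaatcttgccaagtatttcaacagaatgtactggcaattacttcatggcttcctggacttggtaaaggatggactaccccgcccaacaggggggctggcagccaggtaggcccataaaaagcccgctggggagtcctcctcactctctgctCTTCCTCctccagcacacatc
Saa3: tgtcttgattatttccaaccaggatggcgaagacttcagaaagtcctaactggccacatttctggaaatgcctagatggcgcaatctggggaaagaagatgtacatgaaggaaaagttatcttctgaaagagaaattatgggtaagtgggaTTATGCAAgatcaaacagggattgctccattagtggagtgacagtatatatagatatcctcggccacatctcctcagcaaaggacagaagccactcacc
Icam1: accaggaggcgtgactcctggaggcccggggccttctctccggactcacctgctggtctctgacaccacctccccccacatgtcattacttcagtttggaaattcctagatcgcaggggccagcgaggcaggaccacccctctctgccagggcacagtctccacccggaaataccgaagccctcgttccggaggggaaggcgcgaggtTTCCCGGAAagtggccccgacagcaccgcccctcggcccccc
These windows are chr1:171018676-171018925 (+), chr11:115133993-115134242 (-), chr2:32387740-32387989 (-), chr7:46715677-46715926 (-) and chr9:21015690-21015939 (+). Their matches begin at base -23 in Fcgr4, -44 in Cd300lf, -216 (C/EBP) and -21 (PU.1) in Lcn2, -99 in Saa3 and -42 in Icam1, counting back from the start.

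Such windows were found for 30 of the 40 genes, 25 of them among those that rose. PU.1 letters stood in 5 of the 25 (20%), against 12.9% of 11366 tested genes with a window. C/EBP letters stood in 6 (24% against 8.79%) and STAT letters in 4 (16.0% against 7.04%). The letters of a strict form of the NF-kappaB motif stood in 0 of the 25, against 1.25%. Variants of that form were not searched, so this count does not show that Icam1 or the other risen genes lack NF-kappaB sites. TGACGTCA (CRE) and TGANTCA (AP-1) were each in 1, against 2.97% and 5.52%. Of the 5 genes that fell and have a window, 1 (20%) held PU.1 letters (Acbd5), 1 C/EBP letters (P2ry12) and 1 the CRE letters (C030029H02Rik), and 0 held STAT letters. A match is a description of these letters and does not show that a factor binds there.

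Receptors for debris, bacterial products and complement rose as well. Msr1, the scavenger receptor that takes up modified lipoproteins, had 0.209, 0.0676 and 0 CPM in sham. After tMCAO it had 18.6, 7.71 and 31.5 CPM, and with celastrol 25.1, 2.24 and 13 CPM, a 14.1-fold spread among occluded libraries that was the widest of the 40 genes. It rose by 7.36 (SE 1.14, adjusted p = 0.0484). Cd14, the co-receptor for lipopolysaccharide, had 1.55 to 2.3 CPM in sham and 9.31 to 44.8 CPM in occluded libraries (rise of 3.66, SE 0.59). C5ar1, the receptor for complement fragment C5a that draws in neutrophils, had 0.277 to 0.544 CPM in sham and 2.34 to 11.2 CPM in occluded libraries (rise of 3.67, SE 0.55). Itgb2, the beta chain of complement receptor 3 and of LFA-1, had 4.72 to 6.9 CPM in sham and 11.1 to 17.5 CPM in occluded libraries (rise of 1.24, SE 0.20).

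Receptors for metabolites and growth factors formed a further set. Hcar2, which senses the ketone body beta-hydroxybutyrate and niacin, had 0, 0 and 0.0692 CPM in sham and 0.584 to 2.31 CPM in occluded libraries, 4 against 649 counts (fitted rise of 6.02, SE 0.93). Gpr84, a receptor for medium-chain fatty acids, had 0.467 to 0.507 CPM in sham and 1.81 to 5.46 CPM in occluded libraries (rise of 2.93, SE 0.41). Csf2rb, the shared signalling chain of the receptors for GM-CSF, IL-3 and IL-5, had 0.422 to 0.642 CPM in sham and 1.9 to 7.65 CPM in occluded libraries (rise of 3.02, SE 0.48). In Csf2rb the second celastrol library was the second highest of the 6, at 5.88 CPM. It was the lowest of the 6 in 15 of the 34 genes that rose and the highest in 0.

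4 of the 40 genes lay in 1 stretch of the Ms4a gene cluster on chromosome 19. Ms4a6c, Ms4a6b and Ms4a6d encode small membrane proteins with 4 spanning segments found in myeloid cells, and BE692007 is a non-coding gene on the opposite strand of Ms4a6c that overlaps it by 12027 bases. Ms4a6d (chr19:11586604-11604849) had 1.06, 0.693 and 0.951 CPM in sham, 10.7, 7.44 and 21.1 CPM after tMCAO and 22.1, 8.03 and 15.1 CPM with celastrol. It rose by 3.96 (SE 0.46, adjusted p = 0.0255). Ms4a6c rose by 3.53 (SE 0.52), BE692007 by 2.51 (SE 0.33) and Ms4a6b by 2.53 (SE 0.39). BE692007 had 55% as many counts as Ms4a6c over the 9 libraries, and reads in their overlap could not be told apart without strand. The Ms4a6 genes are also close copies of each other. Between Ms4a6b and Ms4a6d, which are 55.3 kb apart, lies Ms4a4d, which had 0 counts in sham and 28 in occluded libraries and was not tested.

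Most other Ms4a genes of this stretch were too low to be tested. Ms4a4a, the only one of these that was tested, had 10 counts in sham and 428 in occluded libraries (log2 fold change 4.27, SE 1.10, adjusted p = 0.15). Ms4a1, which encodes the B cell antigen CD20, had 0 counts in sham and 8 in occluded libraries in all. By chromosome, 22.5% of the 40 genes were on chromosome 7 against 7.6% of tested genes, and 12.5% on chromosome 19 against 3.44%.

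Secreted acute phase proteins were among the genes that rose to the highest levels. Per length, Serpina3n, Lcn2 and the cell cycle inhibitor Cdkn1a had the highest means in occluded libraries, at 158, 30.8 and 29.6 FPKM. Serpina3n, a protease inhibitor made by reactive astrocytes, had 28.5, 18.7 and 13.1 CPM in sham. After tMCAO it had 572, 214 and 493 CPM, and with celastrol 414, 92 and 364 CPM. It rose by 4.15 (SE 0.61, adjusted p = 0.0484), from a mean of 8.34 FPKM in sham. Lcn2, the iron-siderophore binding lipocalin of astrocytes and neutrophils, had 4.51, 1.86 and 2.21 CPM in sham, 108, 31.6 and 37.9 CPM after tMCAO and 158, 111 and 94.5 CPM with celastrol. It rose by 4.97 (SE 0.66, adjusted p = 0.0440), from a mean of 0.924 FPKM in sham.

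Saa3, an inflammation-induced apolipoprotein of the serum amyloid A family, had 0.0558, 0 and 0.0692 CPM in sham, 8 counts in all. After tMCAO it had 10.4, 3.45 and 2.48 CPM, and with celastrol 24.8, 4.01 and 9.77 CPM. The fitted rise was 7.70 (SE 1.17, adjusted p = 0.0484). Ccl4, a chemokine that attracts myeloid cells and lymphocytes, had 0 counts in all sham libraries and 940 counts in occluded libraries (2.61, 1.62 and 5.09 CPM after tMCAO, 2.04, 0.442 and 1.69 CPM with celastrol). With a floor of 3 counts over the sham group, it was at least 140-fold higher (adjusted p = 0.0484), and this bound covers counting error only. C4b, the complement component cleaved by the classical and lectin pathways, had 23.8, 14.5 and 15.9 CPM in sham and 41.2 to 117 CPM in occluded libraries (rise of 2.25, SE 0.34).

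Cytokine receptors and regulators of the same response rose from measurable sham levels. Osmr, the receptor chain for oncostatin M that pairs with gp130, had 9.59, 5.95 and 7.52 CPM in sham, 55.8, 33.5 and 81.8 CPM after tMCAO and 56.4, 18.6 and 49.6 CPM with celastrol (rise of 2.68, SE 0.43). Il4ra, the chain shared by the receptors for IL-4 and IL-13, had 4.85 to 8.75 CPM in sham and 20.3 to 47.3 CPM in occluded libraries (rise of 2.27, SE 0.33). Cebpd, a transcription factor induced by gp130 cytokines, had 2.75 to 4.72 CPM in sham and 8.55 to 26 CPM in occluded libraries (rise of 2.25, SE 0.36). Zfp36, which encodes tristetraprolin and speeds the decay of cytokine mRNAs, had 2.78 to 3.48 CPM in sham and 6.53 to 29.8 CPM in occluded libraries (rise of 2.54, SE 0.41). All 4 had adjusted p = 0.0484 and the second celastrol library was the lowest of the 6 in Osmr, Cebpd and Zfp36.

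Cdkn1a, the p53 target p21 that halts the cell cycle, had 20.5, 20.2 and 30 CPM in sham, 169, 127 and 73.1 CPM after tMCAO and 148, 53.7 and 128 CPM with celastrol (rise of 2.30, SE 0.37). Icam1, the endothelial ligand of leukocyte integrins such as LFA-1, had 1.42 to 2.07 CPM in sham and 7.4 to 22.5 CPM in occluded libraries (rise of 2.76, SE 0.41). Ch25h, which makes 25-hydroxycholesterol, had 0.623 to 2.15 CPM in sham and 5.52 to 11.6 CPM in occluded libraries (rise of 2.63, SE 0.43). Ifi30, a lysosomal thiol reductase used in antigen processing, rose by 2.03 (SE 0.30), and B4galt1, a Golgi galactosyltransferase, by 1.42 (SE 0.22).

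A pair of genes outside these roles rose by small amounts with little spread. Cd2bp2, a protein of the U5 spliceosome particle, had 50.7, 70.6 and 42.1 CPM in sham and 102 to 118 CPM in occluded libraries, a spread of 1.16-fold that was the narrowest of the 40 genes (rise of 0.995, SE 0.15). Tma16, a factor of ribosome biogenesis, had 10.1 to 14.8 CPM in sham and 26.4 to 39.9 CPM in occluded libraries (rise of 1.35, SE 0.20). In the second celastrol library they had 109 and 27.3 CPM, above every sham library.

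**Figure D3:**
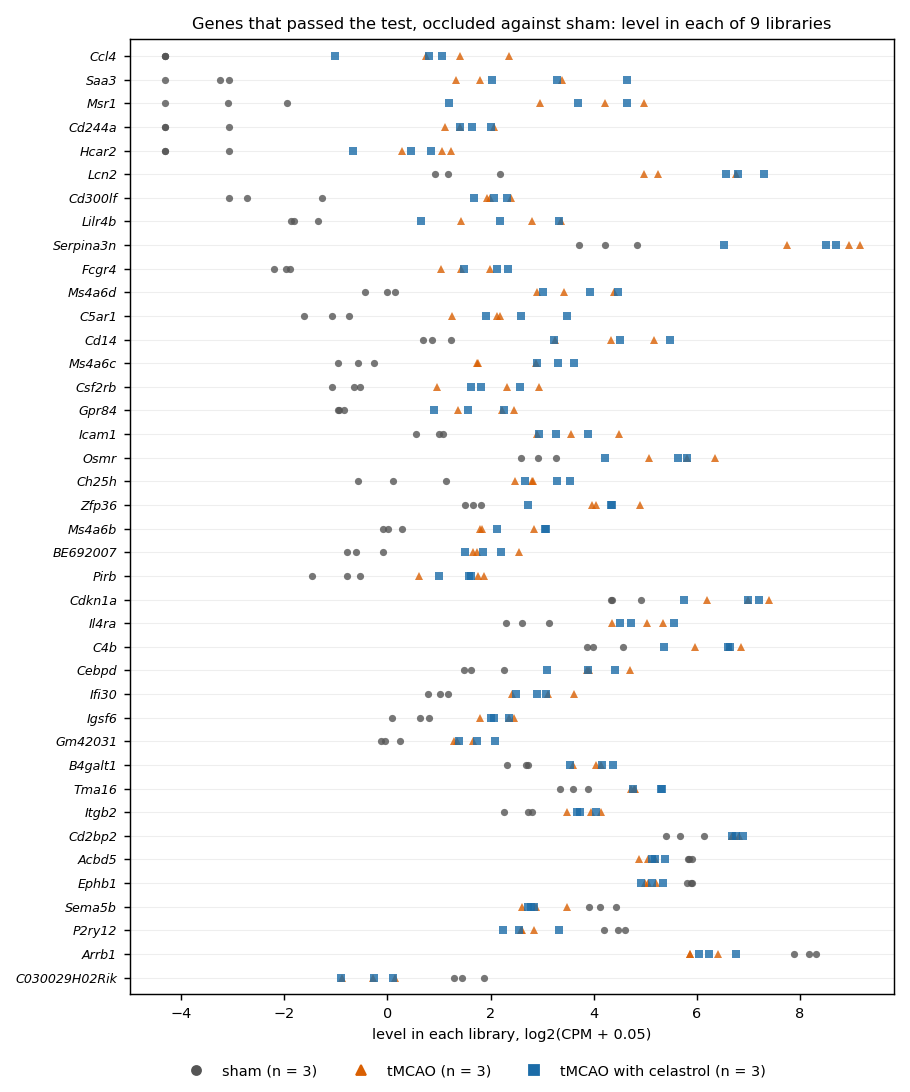
Each row is 1 of the 40 genes past the threshold and each symbol 1 library (grey circles sham, orange triangles tMCAO, blue squares tMCAO with celastrol), with log2(CPM + 0.05) on the x axis. In every row the 3 sham libraries lie apart from the 6 occluded ones, and for Ccl4 all 3 sham libraries are at 0 counts.

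Of the 34 genes that rose, 16 reached an FPKM of 0.5 in no sham library. They passed the filter through the occluded libraries, as did 527 of all tested genes, and so could hardly fail to be higher. The other 18, among them Serpina3n, Lcn2, Osmr, C4b, Cdkn1a and Cd2bp2, were measurable in sham.

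Of the 6 genes that fell, 5 reached an FPKM of 0.5 in every library, so that their falls were read from measurable levels in both groups. Arrb1 (ENSMUSG00000018909, chr7:99535466-99606771, + strand), which uncouples and internalises activated G protein-coupled receptors, had 235, 289 and 316 CPM in sham. After tMCAO it had 85.6, 58.2 and 58.2 CPM and with celastrol 75.4, 108 and 66.1 CPM, so that the highest occluded library was far below the lowest sham library. It fell by 1.896 on the log2 scale (SE 0.19, adjusted p = 0.0188), a 3.72-fold lower mean, and from 21.3 to 6.01 FPKM. Its relative Arrb2, named here after its value was seen, had a log2 fold change of 0.24 (SE 0.11, adjusted p = 0.37). Arrb1 remained past the threshold in 5 of the 9 fits that left out a library.

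P2ry12 had 18.2, 24.4 and 22.2 CPM in sham, 7.13, 6.06 and 6 CPM after tMCAO and 5.85, 10 and 4.71 CPM with celastrol. It fell by 1.71 (SE 0.21, adjusted p = 0.0392), a 3.26-fold lower mean. It lies inside Med12l on the other strand, which had 447% as many counts and a log2 fold change of -0.37 (SE 0.22, adjusted p = 0.48). Of the 13 genes of the homeostatic microglia list it was the 1 that passed. Others of that list were Siglech at -0.68 (SE 0.26), P2ry13 at -0.58 (SE 0.23), Tmem119 at -0.54 (SE 0.22) and Gpr34 at -1.16 (SE 0.56), with adjusted p from 0.30 to 0.40. The list's median was -0.54, and 10 of 13 values were below 0, against a median of 0.01 over all genes tested. Without sham replicate 2 the list's median was -0.23.

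The other 4 genes that fell have roles in axon guidance, peroxisomes or none that is known. Sema5b, a guidance semaphorin, had 14.9, 17.3 and 21.5 CPM in sham and 6.07 to 11.1 CPM in occluded libraries (fall of 1.25 on the log2 scale, SE 0.20). Ephb1, a receptor tyrosine kinase for ephrin-B ligands, had 59.2, 56.4 and 60.1 CPM in sham and 30.3 to 40.7 CPM in occluded libraries. Acbd5, which tethers peroxisomes to the endoplasmic reticulum, had 59.9, 57 and 57.8 CPM in sham and 29.3 to 41.6 CPM in occluded libraries. Ephb1 fell by 0.76 (SE 0.10) and Acbd5 by 0.72 (SE 0.11), the smallest changes among the 40. Their occluded libraries differed by up to 1.34-fold and 1.42-fold, beside means that were 1.69-fold and 1.65-fold lower than in sham.

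Among protein-coding genes with lower values that missed the threshold, 4 had the smallest p. Hivep2 (log2 fold change -0.67, SE 0.11, adjusted p = 0.0528) and Hivep1 (-0.62, SE 0.10, adjusted p = 0.0543) encode related zinc finger factors that bind kappaB-like sites. Pltp, a phospholipid transfer protein (-1.42, SE 0.26, adjusted p = 0.0712), and Col11a2, a fibrillar collagen chain (-1.10, SE 0.21, adjusted p = 0.0754), had larger p. Many genes with higher values lay between these by p, among them Slc10a6, Bcl3, Socs3 and C1qb, which are described with their lists below. In all, 141 genes were higher and 32 lower at an adjusted p under 0.1.

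With retained introns and processed transcripts counted as long non-coding, 1253 of the 16982 tested genes had no transcript of another type in the table. Of the 40 genes, 4 were of this kind. 1 of them is Ifi30, which is known as a protein gene, and BE692007 was described above. Gm42031 had 0.862 to 1.13 CPM in sham and 2.41 to 4.2 CPM in occluded libraries (rise of 1.63, SE 0.26). C030029H02Rik had 2.4 to 3.6 CPM in sham and 0.489 to 1.05 CPM in occluded libraries and fell by 1.903 on the log2 scale (SE 0.30). Among long non-coding genes that missed the threshold, AI506816 had a log2 fold change of 2.34 (SE 0.48), 2410006H16Rik of 1.21 (SE 0.24), A230001M10Rik of -1.56 (SE 0.31) and Gm15721 of -1.17 (SE 0.22), with adjusted p from 0.0716 to 0.0873.

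The 2 arms share the 3 sham libraries, so their values are given side by side and their likeness is no independent result. Fcgr4 changed by 3.84 (SE 0.39) after tMCAO and by 4.34 (SE 0.39) with celastrol, and Arrb1 by -2.06 (SE 0.23) and -1.75 (SE 0.23). Lcn2 changed by 4.37 (SE 0.57) and 5.40 (SE 0.60) and Serpina3n by 4.40 (SE 0.64) and 3.85 (SE 0.62). Ccl4 had fitted values of 10.72 (SE 1.29) and 9.56 (SE 1.302). Their size is not measured, since Ccl4 had 0 counts in every sham library. P2ry12 changed by -1.76 (SE 0.28) and -1.66 (SE 0.28). Of the 34 genes that rose, the mean CPM was higher after tMCAO in 19 and higher with celastrol in 15.

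Each arm was compared with sham in a fit of all 9 libraries with 1 mean per group, and few genes passed. tMCAO against sham had 0 of 16982 genes past the threshold (0%; 14.9% at an unadjusted p under 0.05 by edgeR, 836 genes by DESeq2). Celastrol against sham had 1, Fcgr4 (0.00589%, and 8.51% at an unadjusted p under 0.05). Fitted on the libraries of the 2 groups compared and no others, tMCAO against sham had 30 genes and celastrol against sham 4. The difference between the arms was tested as celastrol against tMCAO, where 0 genes passed (0%; 4.11% at an unadjusted p under 0.05, 18 genes by DESeq2) and the smallest adjusted p was 0.98. Of the 40 genes, Ms4a6c alone had an unadjusted p under 0.05 in that comparison. Ms4a6c had 3.28, 3.35 and 7.29 CPM after tMCAO and 12.3, 7.41 and 9.86 CPM with celastrol, groups that do not overlap. These p-values do not show that the arms act alike.

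**Figure D4:**
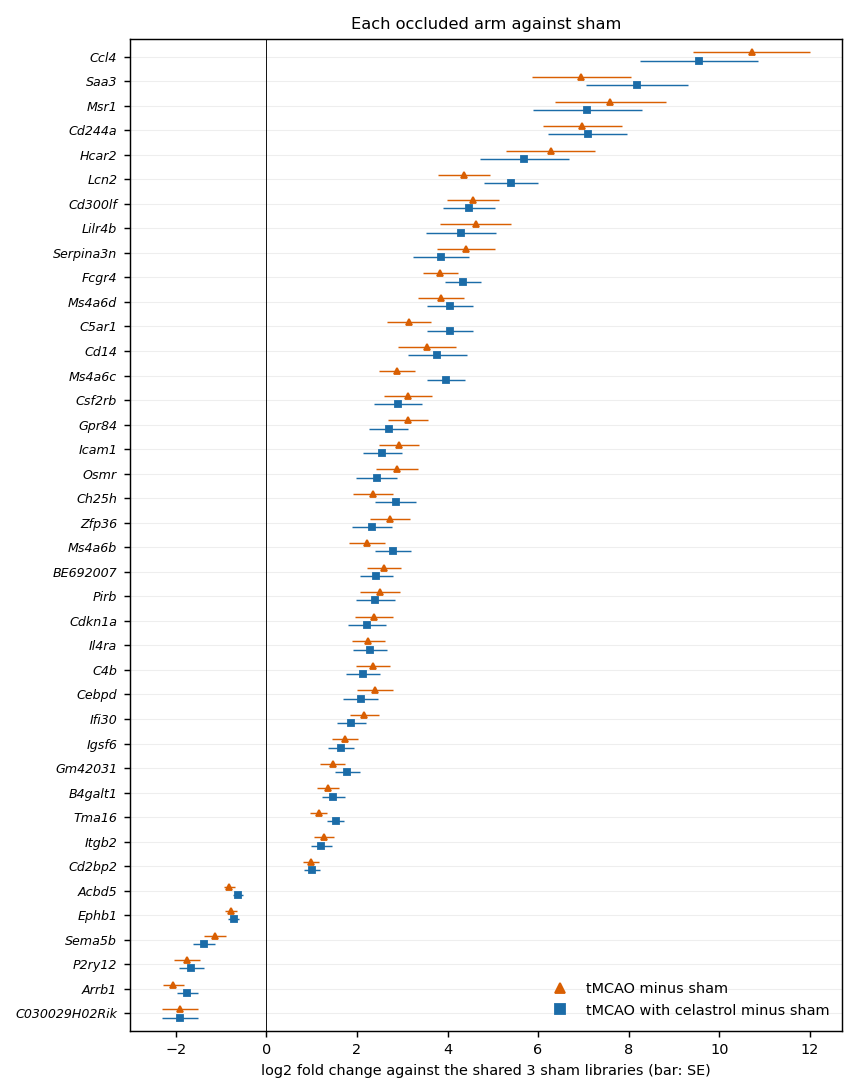
Points give the log2 fold change of tMCAO (orange triangles) and of tMCAO with celastrol (blue squares) against the same 3 sham libraries for the 40 genes, with bars of 1 SE. Both arms lie on the same side of 0 in every row, from Ccl4 at 10.72 and 9.56 to C030029H02Rik at -1.901 and -1.905. The size of the Ccl4 values is fitted and not measured, since its sham libraries had 0 counts.

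The counts in the gene lists below stand beside 0.2% of all tested genes that rose, 4.2% with every occluded library above every sham library and 8.36% higher at an unadjusted p under 0.05. The reactive astrocyte list, genes that astrocytes turn on after injury, had 27 tested genes, of which 3 (Lcn2, Serpina3n and Osmr) rose and 0 fell. All 27 had a positive log2 fold change, 18 had groups that do not overlap, and the median was 2.66. Of these genes 10 reached the FPKM minimum in no sham library, and over the others the median was 2.03. Slc10a6, a steroid sulfate carrier (7.55, SE 1.28), and Cp, ceruloplasmin (1.35, SE 0.23), had adjusted p of 0.0565 and 0.0577. Without the second celastrol library 18 of the 27 rose, beside 265 of all 16982 genes.

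Activated microglia and macrophage genes counted 27 tested, of which 4 rose (Fcgr4, Ms4a6d, Msr1 and Cd14), 21 had groups that do not overlap and the median was 1.51. Of these 7, Fcgr4 and Msr1 among them, reached the FPKM minimum in no sham library, and over the others the median was 1.14. Complement counted 17 tested, with 3 risen (C5ar1, C4b and Itgb2), 12 that do not overlap and a median of 1.15, or 1.02 over the 14 that reached the minimum in sham. C1qb, a chain of the first component (0.98, SE 0.18), had an adjusted p of 0.0649. Among 18 tested chemokine genes 1 rose, Ccl4. Ccl7 and Ccl3 had 0 and 0.0644 CPM in sham and 2.28 and 4.69 CPM in occluded libraries (means), with adjusted p of 0.0827 and 0.0873. 9 of the 18 passed the filter through the occluded libraries alone, and over the rest the median was 0.35. At an unadjusted p under 0.05, 12 of the 18 were higher and 2 lower (DESeq2 called 10 and 1). The lower ones, named here after their values were seen, were Cxcl14 (-0.41, SE 0.12, adjusted p = 0.20), in groups that do not overlap, and Cxcl12 (-1.18, SE 0.34, adjusted p = 0.18), in groups that do. Without the second celastrol library 13 activated microglia genes, 6 complement genes and 7 chemokine genes rose.

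In the list of gp130 signalling, the path from IL-6 family receptors to STAT3, 2 of 15 genes rose (Osmr and Cebpd) and the median was 0.53, or 0.80 without sham replicate 3. Bcl3 (3.98, SE 0.68, adjusted p = 0.0565), Socs3, the inhibitor that STAT3 induces (2.84, SE 0.51, adjusted p = 0.0620), and Stat3 itself (1.21, SE 0.32, adjusted p = 0.16) did not pass. Of 19 endothelial activation and adhesion genes Icam1 rose. The list's median was 1.75, or 1.07 without the 7, Icam1 among them, that reached the FPKM minimum in no sham library. The values of Selp, P-selectin (4.28, SE 0.83), Plaur (3.24, SE 0.69) and Vwf (1.08, SE 0.23) had adjusted p from 0.0759 to 0.0997. With the second celastrol library left out, 5 gp130 genes and 7 endothelial activation genes rose.

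Stress lists held large single values and few calls. Of 19 NRF2 and redox genes 0 passed by edgeR (12 higher at an unadjusted p under 0.05, 6 by DESeq2), and all 19 were above 0, with a median of 0.45. Hmox1, heme oxygenase, went from a mean of 5.07 to 88.9 CPM (4.13, SE 0.85, adjusted p = 0.0906) and Srxn1, sulfiredoxin, from 92.3 to 228 CPM (1.31, SE 0.27, adjusted p = 0.0873). Of 17 heat shock chaperones 0 passed (6 higher at an unadjusted p under 0.05, 5 by DESeq2), and Hspb1 had 3.29 (SE 0.72, adjusted p = 0.10). Of 19 p53 target genes Cdkn1a rose. Hypoxia and glycolysis genes had a median of 0.04, which ran from -0.04 without tMCAO replicate 1 to 0.09 without tMCAO replicate 2, with 0 of 19 past the threshold (4 higher at an unadjusted p under 0.05, 2 by DESeq2) and Hk2 at 1.51 (SE 0.33, adjusted p = 0.0997). When the second celastrol library was left out, 3 NRF2, 4 heat shock, 5 p53 target and 2 hypoxia genes rose.

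No gene of the neuronal lists passed the threshold, and values of the lists of synapses, neuronal signalling and receptors were mostly negative. Over all tested genes, 51.29% were above 0, 0.0353% fell and 5.12% were lower at an unadjusted p under 0.05 (edgeR). DESeq2 called 173 of 16982 lower. Of 26 synaptic vesicle and postsynaptic genes, 24 had a negative log2 fold change and the median was -0.30 (edgeR: 0 passed, 9 lower at an unadjusted p under 0.05; 0 by DESeq2). Shank1, a postsynaptic scaffold, had -0.69 (SE 0.21, adjusted p = 0.20). Of 29 genes of cAMP and calcium signalling 25 were negative, with a median of -0.43, or -0.28 without sham replicate 3 (0 passed, 12 lower at an unadjusted p under 0.05; 1 by DESeq2). Prkacb, a catalytic subunit of protein kinase A, had 681 CPM on average in sham and 333 CPM in occluded libraries (-1.03, SE 0.35, adjusted p = 0.25). Of 28 glutamate and GABA receptor genes 26 were negative, with a median of -0.30 (0 passed, 3 lower at an unadjusted p under 0.05; 1 by DESeq2). Without the second celastrol library 2, 4 and 1 genes of these lists fell. Other neuronal lists were mixed. Of 29 channel genes for potassium, calcium and sodium 18 were negative and 11 positive (median -0.19), of 19 neuropeptide genes 14 and 5 (median -0.25), and of 14 regeneration associated genes 6 and 8 (median 0.07, from -0.10 without sham replicate 1 to 0.26 without sham replicate 3).

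**Figure D5:**
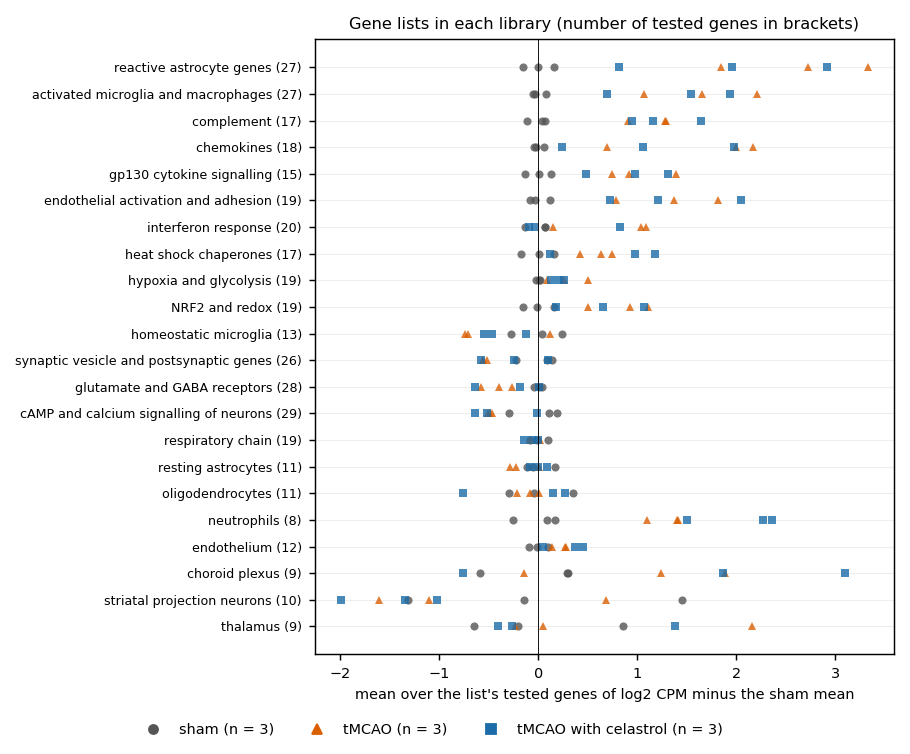
Each row is a gene list, with the number of its tested genes in brackets, and each symbol 1 library, at the mean over the list of log2 CPM minus the sham mean (x axis). The 6 occluded libraries lie above sham in the reactive astrocyte, microglia, complement and chemokine rows, while the choroid plexus, striatal and thalamus rows spread widely within groups. In the first 4 of these rows, 10 of 27, 7 of 27, 3 of 17 and 9 of 18 genes passed the filter through the occluded libraries alone, which favours higher scores there. The summed CPM of the chemokine list overlapped, at 335 to 1110 in sham and 186 to 840 in occluded libraries.

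Markers of other cells and regions moved with the groups or across them. The 14 neutrophil markers summed to 9.02 to 10.0 CPM in sham and 24.5 to 50.7 CPM in occluded libraries. 0 of the 8 that were tested passed (edgeR; 6 higher at an unadjusted p under 0.05, 6 by DESeq2). Of these 8, 5 reached the FPKM minimum in no sham library. S100a9 had 94, 23 and 18 counts in sham and 235 to 1038 in occluded libraries (3.73, SE 0.65, adjusted p = 0.0577). Of other neutrophil genes, Csf3r had 350, 440 and 401 counts in sham and 304 to 828 in occluded libraries, which overlap. S100a8 had 69 counts over the 3 sham libraries and 2075 over the 6 occluded ones. Ngp had 35 and 1018, Ltf 16 and 426 and Cxcr2 0 and 452. Most counts of Ngp and Ltf came from celastrol libraries. Ngp had 8, 42 and 0 counts after tMCAO and 439, 113 and 416 with celastrol. Ltf had 23, 16 and 0 counts after tMCAO and 189, 26 and 172 with celastrol. Cxcr2 had 98, 57 and 182 counts after tMCAO and 61, 8 and 46 with celastrol. The defining genes Ly6g and Elane had 0 counts in sham and 5 and 0 in occluded libraries, and Mpo had 30 and 30. The 12 markers of monocytes and infiltrating macrophages summed to 104 to 161 CPM in sham and 114 to 279 CPM in occluded libraries, which overlap. Of the 7 that were tested 6 were positive and 0 passed (edgeR; 4 higher at an unadjusted p under 0.05, 3 by DESeq2). Among these 7, 3 reached the FPKM minimum in no sham library. Of those too low to be tested, Ccr2 had 27 counts over the sham libraries and 576 over the occluded ones, 339 of them in tMCAO replicate 3. Sham replicate 1 and celastrol replicate 3 each had 15 Ccr2 counts. Plac8 had 0 counts over the sham and 217 over the occluded libraries, Ms4a4c 12 and 90 and Ms4a7 41 and 93. With the second celastrol library left out, 2 neutrophil and 1 monocyte markers rose. Of 10 lymphocyte markers, 2 were tested, and their summed CPM overlapped (1.38 to 14.7 and 0.752 to 11.4). The part of entering cells in the risen myeloid genes was not tested.

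Homeostatic microglia markers summed to 319.9 to 408 CPM in sham and 261 to 518 CPM in occluded libraries, so the sum overlapped where P2ry12 did not. Marker sums of neurons (7748 to 8469 CPM in sham, 6032 to 9526 CPM in occluded libraries) and of resting astrocytes (4953 to 5409 and 3763 to 5137 CPM) overlapped as well. Endothelial markers did not overlap, with 431 to 529 CPM in sham and 538 to 703 CPM in occluded libraries. Of these 12 genes 0 passed (edgeR; 5 higher and 2 lower at an unadjusted p under 0.05, 2 higher by DESeq2; 1 rose without the second celastrol library). Pecam1, an adhesion protein between endothelial cells, had 1.05 (SE 0.25, adjusted p = 0.14), and Tek, the angiopoietin receptor, -0.69 (SE 0.21, adjusted p = 0.20). Their part in the values of Icam1 and of the endothelial activation list was not tested. Choroid plexus markers summed to 227 to 305 CPM in sham and 162 to 2527 CPM in occluded libraries, and striatal projection neuron markers to 243 to 1594 and 190 to 911 CPM. The median of the striatal list, -1.16, moved to -0.12 without sham replicate 3. That of the choroid plexus list, 1.89, moved to 1.12 without celastrol replicate 1. The part of these differences in the 40 genes was not tested.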

How the data were processed

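The authors deposited 1 table with an estimated count and an FPKM value per gene and library. The submitters' processing notes name mm10 and the tools DESeq2, edgeR, StringTie 1.3.4d, HISAT2 2.0.4 and cutadapt 1.9, with no settings. The deposited estimated counts are whole numbers. The deposited FPKM values served only for the filter, for levels compared between genes and for an alternative test. Strand use in counting is unknown.

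Here the counts of all 9 libraries were scaled by TMM and fitted with edgeR 4.0.16 (R 4.3.3; glmQLFit and glmQLFTest, two-sided) as 6 occluded against 3 sham. Each arm and the difference between arms were tested in a fit with 1 mean per group. An SE is the fold change over the square root of F and is approximate. Alternatives used DESeq2 1.42.0 and limma 3.58.1. The fit was also run on simulated counts with 1 spread for all genes, smaller than the common spread of these data, and no outlying library. That setting is simpler than these data and does not vouch for the number of calls here. Library depth bounds a count of 0 at 3 counts.

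The comparison, its members and all gene lists were chosen with earlier results of these data known, and lists carry no test. Genes were named by rule: the largest changes and highest levels among genes that passed and whose libraries separated by group, the smallest p in each list and among long non-coding genes, and the smallest p between arms, filled by p where fewer passed. Gene positions are those of the deposited table (mm10). Upstream sequences are from RefSeq on GRCm38.p6.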

Additional observations from a re-analysis of the deposited data

Results flagged for a closer look

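Among the 6 occluded libraries, 1 library stood apart by Dixon's criterion (the gap to the next library as a share of the range) in 2 of the 40 genes past the threshold, and chance gives about 1 in 20. For Saa3, celastrol replicate 1 had 24.8 CPM and the next library 10.4 CPM, a gap of 0.644 of the range. For Sema5b, tMCAO replicate 3 had 11.1 CPM and the next library 7.34 CPM, a gap of 0.749, and it was still below every sham library.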

How the results depend on the processing

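The number of calls did not hold across alternatives. Directions of the 40 genes are not counted here. The 40 were chosen by adjusted p alone, but their groups did not overlap in CPM, so other fits of these libraries could hardly reverse them. Against 34 higher and 6 lower genes, averaging separately fitted means of both arms gave 1 and 1. DESeq2 gave 606 and 173, and the newer quasi-likelihood form 6 and 3. Limma on log2 FPKM gave 10 and 2 with a pseudocount of 0.5, 39 and 3 with 0.1, and 4 and 2 with 1. Of these limma calls 11, 29 and 6 were among the 40. RLE scaling gave 6 and 3, upper quartile scaling 6 and 3, and library totals alone 6 and 2. The share of higher genes among the calls, 85%, was 66.7% with RLE or upper quartile scaling and 75% with totals, which moved the median of all genes to 0.09. No filter gave 4 and 1, and FPKM 1 gave 2 and 1. With 1 mean per group over all 9 libraries, tMCAO against sham gave 0 and 0 and celastrol against sham 1 and 0 (edgeR; 2534 and 1445 genes at an unadjusted p under 0.05). Leaving out 1 library gave 1 to 265 higher and 0 to 98 lower genes. The cause of these shifts was not tested.

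tMCAO against sham, with 0 genes, gave 30 when fitted on the 6 libraries of these groups, 836 with DESeq2 and 0 to 91 without 1 library. Celastrol against sham, with 1, gave 4, 380 and 0 to 46. Celastrol against tMCAO, with 0, gave 0, 18 and 0 to 2.

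With the replicate number as a block, 101 genes were higher and 11 lower, 38 of the 40 among them. tMCAO against sham then had 51 genes, celastrol against sham 22 and celastrol against tMCAO 0. Whether the numbers pair the samples could not be decided from so few libraries. Deviations of libraries with the same number correlated at -0.16 to 0.20, over 0.1 in 3 of 9 pairs. Libraries with different numbers reached -0.26 (sham 1 and tMCAO 3) and 0.23 (sham 1 and tMCAO 2). In all, 4 of 9 libraries correlated best with their own number.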

Other observations

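Other lists held large values with no gene past the threshold in the pooled edgeR test. Of 25 tested matrix and protease genes, 14 were higher and 1 lower at an unadjusted p under 0.05, and DESeq2 called 11. The median was 0.81, or 0.50 without the 7 that reached the FPKM minimum in no sham library. Timp1, an inhibitor of matrix metalloproteinases, had a mean of 0.574 CPM in sham and 19.5 CPM in occluded libraries (log2 fold change 5.07, SE 1.01, adjusted p = 0.0848), and Adamts1, a secreted protease, 13.3 and 89.3 CPM (2.75, SE 0.51, adjusted p = 0.0748). Of 17 genes for metallothioneins, iron and heme, 10 were higher and 1 lower at an unadjusted p under 0.05 (8 by DESeq2). In this list 3 of the 17 reached the FPKM minimum in no sham library. Mt1 had means of 92.9 and 334 CPM (1.84, SE 0.35, adjusted p = 0.0754). Of 13 tested cytokines 10 were higher (7 by DESeq2), but 6 of the 13 reached the FPKM minimum in no sham library. Il1rn, the natural antagonist of the IL-1 receptor, had 0 CPM in every sham library and a mean of 3.24 CPM in occluded libraries (adjusted p = 0.0754), and Spp1, osteopontin, had means of 15.3 and 199 CPM in groups that overlapped. When the second celastrol library was left out, 6 matrix, 5 metallothionein, iron and heme and 2 cytokine genes rose, as did 4 of the immediate early and 2 of the interferon response genes described next.

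Immediate early genes, which neurons induce by activity, were split. Of 28 tested, 14 were above 0 and 14 below, with a median of 0.01 that ran from -0.37 without celastrol replicate 3 to 0.34 without sham replicate 3. At an unadjusted p under 0.05 (edgeR), 6 were higher and 2 lower. Atf3, a stress factor of injured neurons, was among the higher ones. It had means of 0.995 CPM in sham and 16.3 CPM in occluded libraries (4.03, SE 0.78, adjusted p = 0.0756). All 20 tested interferon response genes were above 0, with a median of 0.89 after tMCAO and 0.20 with celastrol against the same sham libraries, and this difference was not tested for the list. Ifitm2 and Ifitm3, membrane proteins that block virus entry, had 1.59 (SE 0.28, adjusted p = 0.0577) and 1.54 (SE 0.31, adjusted p = 0.0873).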
